A study of Mus musculus with 24 samples.

Results

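The regions described here are stretches of DNA that were open in B16-OVA melanoma cells carrying a control hairpin and were not found open in the same cells carrying a hairpin against Fto. They were chosen from 6 lists of ATAC-seq peaks. In each list the 67427 peaks with the highest -log10 q were kept, which is the number in the shortest list, and kept peaks that overlapped by at least 1 bp were merged. Of 88084 merged regions, 1461 (1.66%) had a peak in all 3 control libraries and in none of the 3 Fto-hairpin libraries. They are called shNC-only regions below. The opposite set, with a peak in all 3 Fto-hairpin libraries and in no control library, had 774 regions (0.879%), and 49718 regions (56.4%) had a peak in all 6 libraries. The peak values chose the members, so the presence of a peak in one group and its absence in the other is a description and was not tested.

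The study knocked down Fto in mouse tumour cells and measured tumour RNA, tumour chromatin, RNA methylation and the T cells cultured beside the tumour cells; the series title names the control of glycolysis by FTO and escape from immune attack as its subject. The ATAC-seq and RNA-seq libraries used here came from B16-OVA cells, a melanoma line of C57BL/6 background made to express ovalbumin. The control group, shNC, had 3 ATAC-seq and 3 RNA-seq libraries, and the knockdown group, shFto, had 3 of each. Both groups carried a hairpin and were grown with puromycin. The labels do not say which hairpin against Fto these libraries carry, whether the cells were 1 clone, or whether replicates were separate cultures, so the spread between replicates may be technical.

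FTO removes the methyl group of N6-methyladenosine from RNA, a mark that influences splicing, stability and translation. ATAC-seq marks DNA that a transposase can reach, which is mostly promoters and enhancers where nucleosomes are displaced. Promoters of active genes tend to be open in most cells, while enhancers, which lie inside or between genes and are bound by tissue-specific factors, differ more between cell states. In melanocytes and melanoma, SOX10, MITF, TEAD and AP-1 factors occupy many such sites.

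Of the 1461 shNC-only regions, 31 overlapped the window from 250 bases before to 50 bases after a gene start in the RefSeq promoter table, and 17 of these did so at a protein-coding gene. The bases before the start that lay inside the region are printed for 8 of these coding genes, to show what the DNA of the regions looks like and where short motifs of factors known in melanoma fall in it. Sequences are from RefSeq, build GRCm38.p6, which has the coordinates of the mm10 build of the peaks, and run 5′ to 3′ on the strand of the gene. Capitals mark matches to the searched motifs on either strand. The starts used for Tnfrsf9, Il1r1, Rab17, Dok7 and Emilin1 lie inside these genes and are not their outermost starts. Tnfrsf9 begins at chr4:150920155 and Il1r1 at chr1:40222480, and Rab17, on the minus strand, at chr1:90969673. Dok7 begins at chr5:35056571 and Emilin1 at chr5:30913387, so their printed bases lie inside the gene. Parp16 begins at chr9:65214652 and Casp4 at chr9:5308849, within their printed bases, so the starts used for them are not outermost either. The first set holds matches to AP-1 or C/EBP, from Tnfrsf9 (chr4:150927749-150927998, plus strand), which encodes a costimulatory receptor of T cells, Parp16 (chr9:65214479-65214689, plus strand), which encodes a mono-ADP-ribosyltransferase of the endoplasmic reticulum, and Il1r1 (chr1:40224830-40225079, plus strand), which encodes the interleukin receptor for IL-1.
Tnfrsf9: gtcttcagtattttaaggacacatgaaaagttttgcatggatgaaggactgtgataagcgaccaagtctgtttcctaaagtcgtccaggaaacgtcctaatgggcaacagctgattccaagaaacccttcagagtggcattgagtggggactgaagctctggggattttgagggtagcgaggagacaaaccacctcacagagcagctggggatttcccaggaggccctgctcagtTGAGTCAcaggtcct
Parp16: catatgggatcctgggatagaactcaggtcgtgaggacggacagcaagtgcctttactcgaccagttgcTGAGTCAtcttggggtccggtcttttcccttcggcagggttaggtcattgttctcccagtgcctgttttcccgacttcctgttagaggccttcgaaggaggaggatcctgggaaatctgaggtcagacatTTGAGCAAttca
Il1r1: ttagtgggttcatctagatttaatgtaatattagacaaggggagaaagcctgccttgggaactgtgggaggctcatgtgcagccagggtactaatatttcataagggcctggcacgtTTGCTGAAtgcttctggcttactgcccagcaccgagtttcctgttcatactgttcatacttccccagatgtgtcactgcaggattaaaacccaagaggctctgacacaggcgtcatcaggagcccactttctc
In Tnfrsf9 and Parp16 the AP-1 match was TGAGTCA, and Parp16 also had a C/EBP match, TTGAGCAA. In Il1r1 the C/EBP match was TTGCTGAA, which is the motif read on the other strand.

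The second set shows matches to TEAD, RUNX, SOX and CTCF. Ankrd1 (chr19:36119887-36120094, minus strand) encodes a muscle and stress protein and is a widely used reporter gene of YAP and TEAD activity. Rab17 (chr1:90967668-90967917, minus strand) encodes a small GTPase of membrane traffic. Dok7 (chr5:35056632-35056765, plus strand) encodes an adaptor of the receptor kinase MuSK.
Ankrd1: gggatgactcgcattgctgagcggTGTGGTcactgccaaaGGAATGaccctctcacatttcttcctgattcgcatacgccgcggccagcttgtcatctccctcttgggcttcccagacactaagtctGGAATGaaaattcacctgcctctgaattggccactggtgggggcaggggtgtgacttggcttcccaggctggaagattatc
Rab17: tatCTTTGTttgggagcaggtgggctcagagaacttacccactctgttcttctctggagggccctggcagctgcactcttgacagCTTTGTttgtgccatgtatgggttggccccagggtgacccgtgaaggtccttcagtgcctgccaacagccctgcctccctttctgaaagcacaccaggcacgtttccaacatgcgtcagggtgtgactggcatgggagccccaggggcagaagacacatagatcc
Dok7: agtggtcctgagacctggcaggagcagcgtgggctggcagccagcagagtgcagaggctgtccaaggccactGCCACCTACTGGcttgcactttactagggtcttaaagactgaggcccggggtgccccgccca
Ankrd1 had the TEAD motif GGAATG at 2 places and the RUNX motif TGTGGT, Rab17 had 2 matches to SOX, and Dok7 had 1 match to CTCF, GCCACCTACTGG.

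The third set had no match to any of the 10 motifs. Casp4 (chr9:5308610-5308859, plus strand), which encodes an inflammatory caspase, is shown because its region had the highest -log10 q of the coding promoters, and Emilin1 (chr5:30913536-30913652, plus strand), which encodes a glycoprotein of elastic fibres, because its RNA changed.
Casp4: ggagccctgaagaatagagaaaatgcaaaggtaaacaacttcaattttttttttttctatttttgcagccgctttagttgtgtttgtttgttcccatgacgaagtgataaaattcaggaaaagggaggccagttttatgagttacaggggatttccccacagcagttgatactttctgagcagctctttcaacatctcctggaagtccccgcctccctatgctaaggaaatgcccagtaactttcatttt
Emilin1: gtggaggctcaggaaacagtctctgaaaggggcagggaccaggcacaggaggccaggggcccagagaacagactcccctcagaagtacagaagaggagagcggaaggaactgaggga
The 10 motifs were AP-1 (TGANTCA), CRE (TGACGTCA), the E-box CACGTG, the M-box TCACATG bound by MITF, C/EBP (TTNNGCAA), SOX (ACAAAG), TEAD (GGAATG), RUNX (TGTGGT), ETS (CCGGAAG) and the core of the CTCF motif, each searched on both strands. SOX and RUNX matches can share bases.

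Over the whole 300-base windows, 37 windows overlapped an shNC-only region and 22 an shFto-only region. AP-1 matched 5 of the 37 windows (13.5%) and 0 of the 22, beside 4.58% of the 11872 windows at regions open in all libraries and 7.81% of all 32851 windows. C/EBP matched 8 of 37 (21.6%) and 0 of 22, beside 7.68% at regions open in all libraries and 10.8% of all windows. The other motifs matched 18.9% of the 37 windows for TEAD (14.7% of all windows), 18.9% for RUNX (16.8%), 21.6% for SOX (18.7%), 8.11% for ETS (8.86%), 2.7% each for the E-box (7.15%), the M-box (3.99%) and CTCF (0.916%), and 0 for CRE (1.79%). The median GC content was 52.0% in the 37 windows, 62.0% in windows at regions open in all libraries and 52.7% in all windows. A region may cover only part of a window, so a counted match may lie outside the region. Some windows belong to the same gene and overlap, and the motifs were chosen with the peaks at hand, so the shares are a description of few windows. Base sequences of the regions away from gene starts were not analysed here.

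The knockdown was seen in the RNA. Fto was at 31.7, 33.5 and 28.3 CPM (counts scaled to the size of the library) in the 3 shFto libraries and at 107, 108.5 and 91.8 CPM in the 3 shNC libraries, a log2 fold change of -1.72 ± 0.10 (SE, edgeR adjusted p = 1.6e-10). Of 7 melanoma markers, all were expressed, with summed levels of 17652 to 18255 CPM in shFto and 14414 to 15271 CPM in shNC. Of 12 markers of leukocytes, endothelium and other cells, 3 had enough counts to be tested, the summed level of those was 3.44 to 5.00 CPM in shFto and 5.98 to 8.51 CPM in shNC, and Ptprc, Cd3e, Cd8a and Cdh5 had no count in any library. In bulk RNA, fewer cells of a type and less RNA per cell cannot be told apart. The RNA libraries held 11152404 to 19665589 counts. The peak lists held 67427 to 72055 peaks in shFto and 74551 to 81944 in shNC, and they give no read counts, so the depth behind a peak is unknown.

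One of the shNC-only regions lay inside Fto itself, at chr8:91395726-91396046, 82201 bp downstream of the gene's start and 16625 bp from the nearest region open in all libraries. Its fold enrichment over local background, as the authors' peak caller gave it, was 8.17, 8.24 and 11.8 in the 3 shNC libraries, and its -log10 q was 13.01, 12.7 and 20.7. No shFto list held a peak there at any rank. The promoter of Fto was not among the shNC-only regions.

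The shNC-only regions were weak to middling peaks. The median fold enrichment was 6.88, 6.87 and 6.25 in shNC replicates 1, 2 and 3, with the middle 80% of regions between 4.40 and 10.3 in replicate 1, 4.39 and 10.1 in replicate 2 and 4.31 and 9.20 in replicate 3. Regions open in all 6 libraries had medians of 13.6, 13.3 and 12.5 in the same libraries. A fold of at least 10 in all 3 shNC libraries was reached by 49 shNC-only regions (3.35%), against 60.0% of the regions open in all libraries, and a fold of at least 15 by 3 of them. None of the shNC-only regions was among the 10000 best peaks of any shNC library, and 64, 65 and 64 were in the better-ranked 33713 of replicates 1, 2 and 3.

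The 3 control libraries gave similar heights for the same region. The highest fold divided by the lowest was 1.27 at the median, and under 1.5 for 1235 regions (84.5%), beside a median of 1.17 for regions open in all libraries. The shFto-only regions were lower still, with median folds of 6.14, 6.07 and 5.94 in their own 3 libraries.

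**Figure D1:**
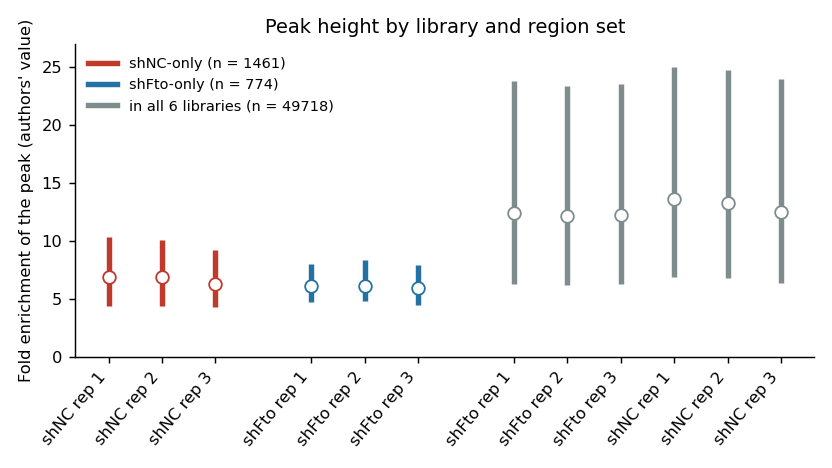
Fold enrichment of peaks (vertical axis, the authors' values) by library for shNC-only regions, shFto-only regions and regions in all 6 libraries. Open circles are medians and bars run from the 10th to the 90th percentile. The shNC-only medians of 6.25 to 6.88 lie below the 12.1 to 13.6 of the regions found in every library.

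Part of the absence in shFto depended on where the ranked lists ended. The weakest kept peak had a -log10 q of 5.16, 4.87 and 1.42 in shFto replicates 1 to 3 and of 7.59, 6.74 and 4.97 in shNC replicates 1 to 3, so a peak of the same -log10 q could be kept in shFto and left out in shNC. Among the 1461 regions, 101 held a lower-ranked peak in shFto replicate 1, 150 in replicate 2 and 0 in replicate 3, whose list was kept whole. In all, 228 (15.6%) held such a peak and 1233 (84.4%) held none at any rank. Heights also differed over the regions found in all 6 libraries, where the median fold was 12.4, 12.1 and 12.2 in shFto against 13.6, 13.3 and 12.5 in shNC. Its part in the choice of regions was not tested.

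At the edge of the choice, the members just inside were chr6:72460608-72460879 near Mat2a, chr14:55946459-55946889 at Cma1 and chr14:34591356-34591629 near Ldb3 and Opn4, whose weakest shNC peaks ranked 67403, 67399 and 67378. The regions just outside had 1 shFto peak each. These were chr2:143990977-143991575 in Rrbp1 (rank 67415 in shFto replicate 3), chr18:60815596-60815936 near Tcof1 (rank 67412 in replicate 2) and chr7:141486254-141486488 near Tspan4 (rank 67409 in replicate 1).

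The 10 strongest shNC-only regions lay 11073 to 482783 bp from the nearest coding gene start, or from the gene end that stood in for it. Several were nearer than the median of 27205 bp for all shNC-only regions. The region with the highest -log10 q in its weakest library, chr2:126309997-126310420, had folds of 20.8, 21.3 and 22.4 and -log10 q of 63.5, 64.2 and 67.1 in the 3 shNC libraries, and no shFto list held a peak there. It lies 10553 bp from Atp8b4, which encodes a lipid-flipping ATPase, and another shNC-only region lies 6247 bp away. Atp8b4 had too few counts to be tested, with 0, 0 and 7 in shNC and 4, 3 and 21 in shFto. The region is 52642 bp from the nearest region open in all libraries.

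Of comparable height were chr5:52794128-52794637 inside Zcchc4, with folds of 18.7, 19.4 and 16.2, and chr4:64640913-64641391, with folds of 20.1, 18.8 and 19.4. Both held a lower-ranked peak in shFto replicates 1 and 2, with -log10 q of 3.46 and 4.08 at the first and 4.38 and 4.08 at the second, against 43.6 to 70.8 and 43.0 to 54.5 in shNC. The second is 482783 bp from the nearest coding gene in the table, Pappa, which encodes a protease of insulin-like growth factor binding proteins. Another region of this height, chr1:183585467-183585905, had folds of 17.0, 15.4 and 14.7 at 148414 bp from Hhipl2.

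The other 6 of the 10 strongest were lower, or inside genes. In Frmd4a, which encodes a scaffold protein of cell polarity, chr2:4318112-4318576 had folds of 14.9, 14.6 and 12.1 and a lower-ranked peak in shFto replicate 1. At chr4:86683700-86684103, 13641 bp upstream of Plin2, which encodes a coat protein of lipid droplets, the folds were 9.14, 9.23 and 8.87. Regions inside Gosr2, Arhgef7 and Uqcc1 had folds of 7.57 to 8.87, 5.71 to 6.63 and 6.87 to 7.77, and lay 1459, 634 and 1183 bp from a region open in all libraries. The last of them, chr11:113103203-113103497, lies in the gene-poor stretch between Sox9 and Slc39a11, 315446 bp from Sox9, a regulator of neural crest and cartilage cells, and had folds of 8.95, 9.31 and 10.7.

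RNA of the genes beside these strong regions moved little. Zcchc4 was at 20.7, 21.3 and 22.6 CPM in shNC and 23.9, 26.4 and 27.5 CPM in shFto (log2 fold change 0.27 ± 0.11 SE, adjusted p = 0.0781). Gosr2, Arhgef7, Uqcc1 and Frmd4a had log2 fold changes of 0.00, -0.02, -0.09 and -0.14 with adjusted p of 0.984, 0.896, 0.481 and 0.239, and their 2 groups of libraries overlapped. Plin2 rose by 0.24 ± 0.09 (adjusted p = 0.0492) and Sox9 by 0.57 ± 0.21 (adjusted p = 0.0406), and each call was lost in 5 of the 6 fits that left out 1 library.

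Most shNC-only regions lay away from promoters. In all, 64 (4.38%, Wilson 95% interval 3.45 to 5.56) were within 1 kb of the start of a protein-coding gene or of the gene end that stood in for a start not in the table, against 5.68% of shFto-only regions, 24.9% of regions open in all libraries and 16.9% of all merged regions. A further 340 (23.3%) lay at 1 to 10 kb, 560 (38.3%) at 10 to 50 kb and 497 (34.0%) beyond 50 kb, with a median distance of 27205 bp. Inside a protein-coding gene were 827 (56.6%), against 64.5% of the regions open in all libraries. The shFto-only regions had 21.1%, 42.9% and 30.4% in the same 3 classes. A gene end stood in for the start at 361 regions (24.7%), among them 16 of the 64. Counting known starts alone, 48 shNC-only regions (3.29%) were within 1 kb, against 4.65% of shFto-only regions, 20.1% of regions open in all libraries and 13.4% of all merged regions.

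**Figure D2:**
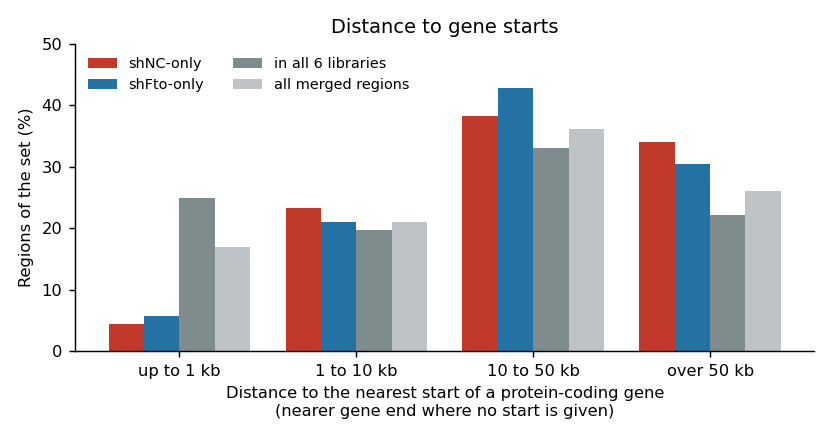
Share of the regions of each set (vertical axis, %) by distance to the nearest start of a protein-coding gene (or to the nearer gene end where no start is given; horizontal axis, 4 classes), for shNC-only, shFto-only, all-library and all merged regions. Within 1 kb of a start lie 4.38% of shNC-only and 24.9% of all-library regions.

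The regions were short and scattered. Their width was 204 to 889 bp, with a median of 316 bp, against 291 bp for shFto-only regions and 438 bp for regions open in all libraries. A region open in all libraries lay within 1 kb of 215 shNC-only regions (14.7%) and within 10 kb of 873 (59.8%). Another shNC-only region lay within 10 kb of 58 (3.97%), and an shFto-only region within 10 kb of 22 (1.51%).

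Only 2 runs of 3 regions had gaps of at most 10 kb, beside 26 pairs. One run spanned 11201 bp inside Capn2, which encodes the catalytic subunit of a calpain protease, and its 3 regions had shNC folds between 3.95 and 6.805. The other spanned 9492 bp inside Tanc1, which encodes a scaffold protein of synapses. Tanc1 had 5 shNC-only regions in or within 50 kb of it, which with Nsmce2 was the highest number for any coding gene, and 18 genes had at least 3.

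At Tanc1 the 5 regions were chr2:59587439-59587782 upstream of the gene and chr2:59652756-59653027, chr2:59664825-59665120, chr2:59665200-59665534 and chr2:59673974-59674316 inside it. Their folds ranged from 4.25 to 11.2 over the 3 shNC libraries, and none had a peak of any rank in shFto. Tanc1 RNA was at 203, 215 and 198 CPM in shNC and at 131, 133 and 137 CPM in shFto, with no overlap (log2 fold change -0.62 ± 0.08 SE, adjusted p = 6.48e-06). At Nsmce2, which encodes a SUMO ligase of genome maintenance, 5 regions had folds of 4.89 to 12.5 between chr15:59411931 and chr15:59600353, and RNA was higher in shFto, at 66.0, 63.7 and 51.1 CPM against 44.2, 43.3 and 49.3 CPM (0.40 ± 0.11, adjusted p = 6.53e-03), a call that was lost without shFto replicate 1 (adjusted p = 0.0636). Nsmce2 was also nearest to 1 shFto-only region, and 1 of its 5 regions held a lower-ranked peak in shFto replicate 1 with a -log10 q of 5.08. The 2 genes with the most shNC-only regions thus differed in the direction of their RNA.

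The other genes with most regions showed smaller RNA differences. Frmd4a had 4 regions and a log2 fold change of -0.14. Man1c1, which encodes a Golgi mannosidase, had 3 regions and -0.12 (adjusted p = 0.395). Cdk19, which encodes a kinase of the Mediator complex, had 3 regions and rose by 0.29 ± 0.11 (adjusted p = 0.0455), a call that was lost in each of 6 fits that left out 1 library except the one without shNC replicate 2. Grk3, a kinase of G protein-coupled receptors, had 3 regions and 5, 4 and 7 counts in shNC and none in the 3 shFto libraries, too few to be tested.

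RNA, which had no part in the choice of regions, was lower in shFto more often near shNC-only regions than over all genes. Of 11718 genes tested with edgeR's quasi-likelihood test, 1977 (16.9%) were lower and 1864 (15.9%) higher in shFto at an adjusted p under 0.05. The shNC-only regions had 886 nearest protein-coding genes within 50 kb, of which 634 passed the filter on low counts and were tested, and 172 of these (27.1%) were lower and 88 (13.9%) higher. The median log2 fold change of the 634 was -0.09, against -0.00 for all genes. Genes nearest to shFto-only regions went the other way, with 39 of 346 (11.3%) lower, 84 (24.3%) higher and a median of 0.07. Genes nearest to regions open in all libraries were at 17.6% lower and 16.4% higher. Scaled by library totals alone, 23.0% of the genes nearest to shNC-only regions were lower and 18.6% higher, against 13.5% and 20.3% of all genes. These are counts without a test of the list, since members were chosen with results of these data known.

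**Figure D3:**
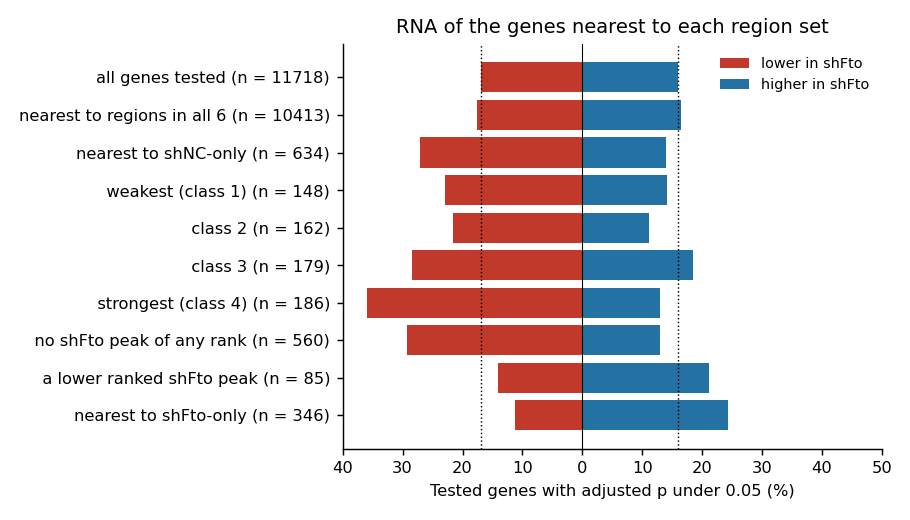
Share of tested genes (horizontal axis, %) that were lower (red, left) or higher (blue, right) in shFto at an edgeR adjusted p under 0.05, for all genes and for the genes nearest to each region set within 50 kb, with the number tested. Dotted lines mark the shares over all genes, 16.9% and 15.9%. The strongest of 4 classes of shNC-only regions by -log10 q reaches 36.0% lower.

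The share that was lower was compared between weaker and stronger regions. Ordered by the lowest -log10 q among the 3 shNC libraries and divided at 7.06, 8.65 and 11.6, the 4 classes of about equal size, from weakest to strongest, had 23.0%, 21.6%, 28.5% and 36.0% of their tested genes lower (148, 162, 179 and 186 genes). The share lower was largest in the strongest class but did not rise at each step, and the difference between classes was not tested. The shares higher in the same order were 14.2%, 11.1%, 18.4% and 12.9%. Regions without a deposited shFto peak of any rank had 29.3% of 560 genes lower and 13% higher, while those with a lower-ranked shFto peak had 14.1% of 85 lower and 21.2% higher. The share of lower genes above the 16.9% of all genes was thus found near the regions with no shFto peak.

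By distance, the share lower was 23.3% of 43 genes within 1 kb, 30.6% of 248 at 1 to 10 kb, 25.9% of 375 at 10 to 50 kb and 21.2% of 151 at 50 to 100 kb. Regions open in all libraries had 17.7%, 22.0%, 16.9% and 15.2% in the same classes. Genes with a single region had 26.0% of 581 lower, those with 2 regions had 44.4% of 45 lower, and of the 8 genes with 3 or more, 1 was lower and 3 higher. Both an shNC-only and an shFto-only region had the same nearest gene in 22 cases, which is 3.47% of the genes nearest to shNC-only regions and 6.36% of those nearest to shFto-only regions. Of all genes tested, 2.95% were nearest to an shFto-only and 5.41% to an shNC-only region, so the overlap was close to these shares.

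Among the 634 tested genes nearest to shNC-only regions, 29 were at least 2-fold lower and 10 at least 2-fold higher at an edgeR adjusted p under 0.05. Over all 11718 genes tested, 217 (1.85%) were lower and 164 (1.40%) higher by that much. The genes with the largest changes at 10 CPM or more were named after their values were seen. The 3 values of one group did not overlap the 3 of the other with shFto lower for 22.7% of all genes and with shFto higher for 22.5%, and for each gene given in the next paragraphs as not overlapping this is the background.

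Among the genes given here, Sema6a had the largest fall. Sema6a, a membrane-bound semaphorin, was at 52.3, 54.6 and 50.2 CPM in shNC and at 15.01, 9.77 and 15.9 CPM in shFto, with no overlap (log2 fold change -1.92 ± 0.14 SE, edgeR adjusted p = 3.47e-09). Its region, chr18:47348829-47349165, lies inside the gene, with folds of 6.25, 6.43 and 5.31. Nrp2, a co-receptor of semaphorins and of VEGF, was at 277, 268 and 241 CPM in shNC and at 127, 130 and 119 CPM in shFto, again apart (-1.06 ± 0.08, adjusted p = 1.12e-08). Nrp2 had 2 regions inside it, at 15506 and 33175 bp downstream of its start, with folds of 3.15 to 3.95 and 4.60 to 5.46. They lay 339 and 1859 bp from a region open in all libraries, and the Sema6a region 17074 bp from one.

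Of genes of signalling and the cytoskeleton, 3 fell by more than 1 on the log2 scale. Afap1l2, an adaptor of actin filaments and Src, fell from 12.8, 18.2 and 15.4 CPM to 4.21, 4.01 and 5.47 CPM (-1.75 ± 0.18, adjusted p = 1.09e-06). Its region inside the gene had folds of 4.61, 4.21 and 5.17. Prex1, an activator of Rac that is needed for the migration of melanoblasts, fell from 28.6, 29.5 and 28.0 CPM to 10.9, 9.33 and 9.57 CPM (-1.53 ± 0.13, adjusted p = 3.57e-08). Its region, 2360 bp upstream of the start, had folds of 4.76, 5.08 and 3.68 and a lower-ranked peak in shFto replicate 2. Fzd2, a receptor of Wnt proteins, fell from 14.9, 15.4 and 14.0 CPM to 4.10, 5.67 and 6.59 CPM (-1.44 ± 0.18, adjusted p = 7.68e-06), and its region lay 22351 bp from the gene. The regions of Afap1l2, Prex1 and Fzd2 lay 3762, 2006 and 59 bp from a region open in all libraries.

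Enzymes were also among the genes that fell. Gxylt2, a xylosyltransferase that acts on Notch, fell from 72.2, 71.5 and 68.8 CPM to 28.3, 29.2 and 32.0 CPM (-1.25 ± 0.09, adjusted p = 8.83e-09). Its region, 3662 bp upstream of the start, had folds of 7.43, 6.29 and 6.98 and -log10 q of 34.4, 24.6 and 24.6. Cp, the copper-carrying ferroxidase ceruloplasmin, fell from 28.3, 32.5 and 31.2 CPM to 13.3, 14.0 and 12.8 CPM (-1.20 ± 0.12, adjusted p = 5.32e-07), with a region inside the gene at folds of 10.8, 9.16 and 9.63. Ckb, the brain form of creatine kinase, fell from 527, 507 and 569 CPM to 232, 245 and 282 CPM (-1.08 ± 0.09, adjusted p = 3.17e-08). In each of these genes the groups stood apart. The regions of Gxylt2, Cp and Ckb lay 3448, 7204 and 3005 bp from a region open in all libraries.

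Further genes that fell were of mixed function. Lama5, a laminin chain of basement membranes, was at 24.1, 29.0 and 26.3 CPM in shNC and 12.6, 10.6 and 14.7 CPM in shFto (-1.05 ± 0.14, adjusted p = 1.28e-05), with a region 2776 bp upstream of its start. Col27a1, a fibrillar collagen, had 2 regions, 9535 bp upstream and 14468 bp downstream of its start, and fell by 0.98 ± 0.16 on the log2 scale (adjusted p = 1.01e-04). Clvs1, which encodes a lipid-binding protein, was at 117, 113 and 112 CPM in shNC and 42.7, 45.9 and 35.7 CPM in shFto (-1.47 ± 0.09, adjusted p = 1.01e-09). Its region lies inside the neighbouring gene Asph, 35680 bp from Clvs1. Nxf3, a relative of the mRNA export factor Nxf1, was at 17.3, 17.8 and 17.8 CPM in shNC and 8.14, 7.76 and 10.6 CPM in shFto (-0.98 ± 0.15, adjusted p = 7.54e-05), with a region inside it at folds of 12.04, 13.3 and 10.2. The Lama5 region lay 578 bp, and those of Col27a1 9283 and 532 bp, from a region open in all libraries. For Clvs1 and Nxf3 this distance was 30621 and 86529 bp.

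**Figure D4:**
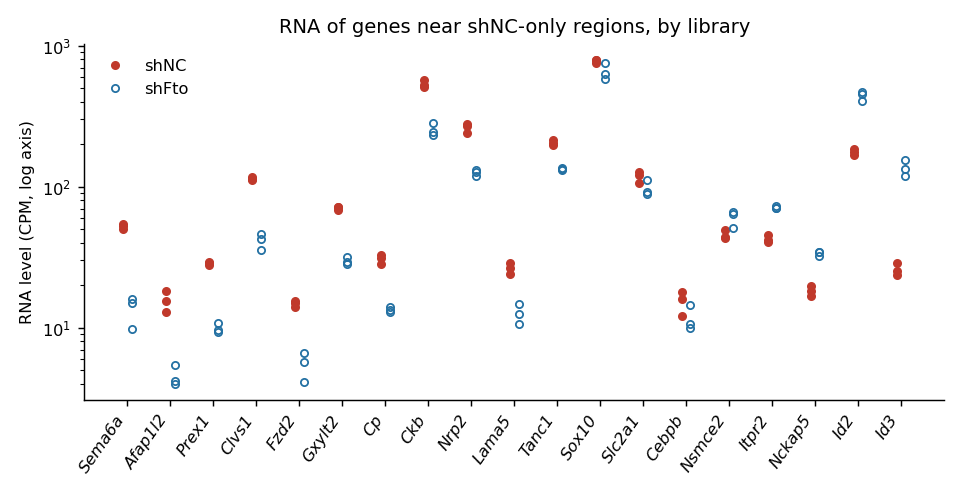
RNA level (vertical axis, CPM, log axis) in each of the 3 shNC (filled) and 3 shFto (open) libraries for 19 genes near shNC-only regions. Sema6a to Lama5 lie lower in shFto without overlap, Sox10, Slc2a1 and Cebpb overlap, and Nsmce2 to Id3 lie higher in shFto.

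Some genes near shNC-only regions rose. Id3 and Id2 encode inhibitors of helix-loop-helix transcription factors. Id3 was at 23.5, 25.4 and 28.6 CPM in shNC and 133, 119 and 154 CPM in shFto (log2 fold change 2.39 ± 0.11 SE, adjusted p = 6.11e-12), and its 2 regions lay 32935 bp upstream and 4575 bp downstream of the start. Id2 was at 177, 169 and 186 CPM in shNC and 458, 471 and 403 CPM in shFto (1.33 ± 0.08, adjusted p = 9.06e-10). Its region, chr12:25097304-25097538, 1212 bp upstream of the start, had folds of only 2.61, 2.59 and 2.82 but -log10 q of 20.2, 17.6 and 18.4. The Id2 region lay 807 bp from a region open in all libraries, and the upstream and downstream Id3 regions 5127 and 279 bp.

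Nckap5 and Itpr2, a calcium release channel, rose as well. Nckap5 was at 18.2, 19.9 and 16.7 CPM in shNC and 34.3, 34.4 and 32.1 CPM in shFto (0.87 ± 0.11, adjusted p = 1.23e-05). Itpr2 was at 45.1, 41.8 and 40.7 CPM in shNC and 70.8, 71.2 and 72.6 CPM in shFto (0.75 ± 0.09, adjusted p = 4.04e-06). The regions of Nckap5 and Itpr2 lay 12271 and 24800 bp from a region open in all libraries. The absence of a called peak in shFto thus went with either direction of RNA, with 172 genes lower and 88 higher.

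Within 1 kb of a gene start or of the gene end that stood in for it, 43 of the 64 genes were tested, and 10 were lower and 6 higher. Of these, 4 differed at least 2-fold and none of the 4 reached 10 CPM. Gdf15, a secreted stress cytokine, fell from 9.87, 12.3 and 11.2 CPM to 2.87, 5.14 and 4.76 CPM (-1.41 ± 0.21, adjusted p = 5.40e-05), and its region 276 bp downstream of the start had folds of 6.41, 5.14 and 4.93. Dok7 fell from 2.20, 4.65 and 3.86 CPM to 0.905, 1.13 and 1.72 CPM (-1.501 ± 0.36, adjusted p = 3.54e-03), and its promoter region, printed above with the CTCF match, had folds of 4.70, 5.49 and 4.60. Unc13d, which primes secretory granules for release, was lower as well (adjusted p = 4.04e-03), but its region lay 522 bp from an end of the gene and the table gave no start. A region open in all libraries lay 366 bp from the Gdf15 region, 1115 bp from that of Dok7 and 3391 bp from that of Unc13d.

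Tnfrsf9 RNA was higher in shFto although its region was found in shNC alone. The region holds the AP-1 match printed above and had folds of 7.23, 5.39 and 5.59 in shNC. It lies at a start inside the gene, while RNA was counted per gene and not per start. Tnfrsf9 RNA was at 0.0760, 0.174 and 0 CPM in shNC and 0.639, 1.05 and 1.06 CPM in shFto (adjusted p = 3.15e-03), which is very low in both groups. Emilin1, at a start region with folds of 3.51, 3.92 and 3.52, fell from 43.4, 46.0 and 44.2 CPM to 23.9, 25.7 and 29.6 CPM (-0.75 ± 0.11, adjusted p = 3.18e-05). Hap1, a partner of huntingtin, was at 141, 150 and 153 CPM in shNC and 91.7, 93.6 and 96.9 CPM in shFto (-0.65 ± 0.08, adjusted p = 4.49e-06). Srsf2, a splicing factor, and Lgals1, a galectin whose region was placed by a gene end, fell by 0.46 ± 0.09 (adjusted p = 5.42e-04) and 0.41 ± 0.09 (adjusted p = 1.83e-03), and Arl15 and Fgfr3 rose by 0.80 ± 0.19 (adjusted p = 3.59e-03) and 0.56 ± 0.15 (adjusted p = 6.96e-03). Close to most of these lay a region open in all libraries. It was 588 bp from the region of Emilin1, 300 bp from Srsf2's, 284 bp from Lgals1's, 294 bp from Arl15's and 340 bp from Fgfr3's. For Tnfrsf9 and Hap1 the distances were 1184 and 1306 bp.

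Several promoters that were open in shNC belonged to genes with almost no RNA. Il1r1, Slco4a1 and Bdkrb2 had no count in any of the 6 RNA libraries although their start regions had folds of 8.18 to 11.4, 7.33 to 10.7 and 5.62 to 7.38 in shNC. The start at the Il1r1 region lies inside the gene. Ankrd1 had 4, 2 and 0 counts in shNC and none in shFto, with folds of 9.03, 10.99 and 7.67. Casp4 was at 0.987, 0.871 and 0.983 CPM in shNC and 0.798, 0.610 and 0.253 CPM in shFto (-0.78 ± 0.52, adjusted p = 0.261), which is below 1 CPM in every library. Lyz2, a macrophage lysozyme and one of the markers of other cell types, had a region at its start with folds of 6.02, 7.33 and 7.15, and 2 to 10 counts per library in both groups. Parp16 was expressed, at 12.5, 13.01 and 13.9 CPM in shNC and 10.4, 10.7 and 13.5 CPM in shFto (-0.18 ± 0.15, adjusted p = 0.376).

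Of 107 genes in 6 groups known in melanoma or named by the series, 10 (9.35%) were the nearest gene of an shNC-only region within 50 kb, beside 886 of all 21900 protein-coding genes (4.05%). The RNA counts of each group read against the 16.9% lower and 15.9% higher of all genes tested, and the groups were chosen with results of these data known. Among 18 pigment and melanocyte genes, of which 16 were tested, 11 (68.8%) were higher and 0 lower in shFto, and the only one nearest to an shNC-only region was Sox10, the master regulator of the lineage. Its region, chr15:79160578-79160811 inside the gene, had folds of 2.71, 2.63 and 2.80. Sox10 RNA was at 790, 787 and 753 CPM in shNC and 631, 579 and 758 CPM in shFto (-0.24 ± 0.09, adjusted p = 0.0527), and the groups overlapped. The adjusted p was 0.0357 with DESeq2, 0.0322 without the filter on low counts, 0.0441 with the replicate block and 2.03e-03 without shFto replicate 3. It was 0.113 with library totals in place of TMM and 0.208 without shFto replicate 1, so the call depended on the setting and on the libraries kept. Pmel, which encodes the matrix protein of melanosomes, had an shFto-only region.

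Of the AP-1 and C/EBP genes, 12 of 14 were tested, 3 (25%) were lower and 2 (16.7%) higher, near the shares of all genes given so few members, and Batf and Cebpb were each nearest to an shNC-only region. Cebpb, with a region 9018 bp downstream of its start at folds of 8.90, 6.22 and 6.93, was at 17.9, 12.1 and 16.1 CPM in shNC and 10.7, 10.0 and 14.5 CPM in shFto (-0.37 ± 0.17, adjusted p = 0.107). Batf, a partner of Jun proteins, had a region inside it at folds of 7.50, 7.91 and 9.71 and was higher in shFto (0.56 ± 0.18, adjusted p = 0.0243), a call lost without shFto replicate 2 or 3 or shNC replicate 2. The 2 genes thus had opposite signs.

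Glycolysis, which the series title names, had 13 of 20 genes lower (65.0%, against 16.9% of all genes) and 3 higher (15%, against 15.9%). Only Slc2a1, the glucose transporter GLUT1, had shNC-only regions. They lay 6251 and 2710 bp upstream of its start, at chr4:119102185-119102494 with folds of 7.18, 7.10 and 8.59 and at chr4:119105779-119106035 with folds of 3.67, 3.63 and 3.91. Slc2a1 RNA was at 106, 122 and 126 CPM in shNC and 91.7, 112 and 88.8 CPM in shFto, so the groups overlapped (-0.28 ± 0.10, adjusted p = 0.0320), and the call was lost with library totals in place of TMM and in 4 of the 6 fits that left out 1 library. Pgam1, a mutase of glycolysis, had an shFto-only region. The lower RNA of the other glycolytic genes thus came without a shNC-only region nearest to them.

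Of 20 regulators of neural crest and mesenchymal states, 14 were tested, 0 were lower and 4 (28.6%) higher. Tead4, the DNA-binding partner of YAP, had a region inside it with folds of 11.8, 11.9 and 5.10, and its RNA was at 36.2, 31.7 and 32.0 CPM in shNC and 27.1, 25.3 and 29.6 CPM in shFto (-0.28 ± 0.11, adjusted p = 0.0553). Runx1 had a region 21781 bp upstream of its start and a log2 fold change of 0.42 ± 0.18 (adjusted p = 0.0711). Runx3 had a region inside it with folds of 3.85, 4.19 and 4.07 and no count in any RNA library. Sox5 had 2 shNC-only regions inside it more than 50 kb from its start and was also nearest to an shFto-only region, and a region 26820 bp from Zeb2, with folds of 12.4, 16.2 and 13.9, was nearer to the start of Gtdc1.

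Of the matrix and adhesion genes, 15 of 18 were tested, 9 (60.0%) were lower and 4 (26.7%) higher. Of the fibroblast markers among the markers of other cell types, Col1a1 and Pdgfra were lower too, at 4.18, 2.03 and 3.58 CPM in shNC against 1.60, 1.22 and 1.67 CPM in shFto for Col1a1 (-1.08 ± 0.34, adjusted p = 0.0201) and 3.72, 3.66 and 3.37 CPM against 2.61, 2.27 and 1.01 CPM for Pdgfra (-0.89 ± 0.34, adjusted p = 0.0477). Dcn, the other fibroblast marker, had 4, 0 and 0 counts in shFto and 0, 0 and 2 in shNC, too few to be tested. Col1a1 is in both lists, and the part of fibroblasts in the matrix counts was not tested. Lamb1, a laminin chain, was the one matrix gene nearest to an shNC-only region within 50 kb, with folds of 9.46, 9.16 and 10.7. Lamb1 was at 3.27, 2.79 and 3.16 CPM in shNC and 1.65, 2.35 and 0.659 CPM in shFto (-1.04 ± 0.38, adjusted p = 0.0408), a call that was lost in 5 of the 6 fits that left out 1 library. Col4a2, a collagen chain of basement membranes, had a region inside it with folds of 11.4, 6.41 and 9.20 that was 50528 bp from the start of its neighbour Col4a1. Col4a2 was at 45.8, 39.8 and 35.8 CPM in shNC and 14.9, 14.7 and 23.1 CPM in shFto, without overlap (-1.19 ± 0.15, adjusted p = 8.16e-06).

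Of the semaphorin and axon guidance genes, 14 of 17 were tested, 4 (28.6%) were lower and 5 (35.7%) higher, and Sema6a and Nrp2, described above, were nearest to shNC-only regions within 50 kb. Sema6d, another membrane-bound semaphorin, had a region inside it, 78553 bp downstream of its start, with folds of 5.43, 6.51 and 5.40. It went the opposite way, at 17.8, 19.9 and 15.4 CPM in shNC and 62.2, 58.4 and 64.2 CPM in shFto, without overlap (1.80 ± 0.11, adjusted p = 4.95e-10).

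The shNC-only regions were unevenly spread over the chromosomes. They made up 2.35% of the merged regions of chromosome 18, 2.19% of chromosome 12 and 2.08% of chromosome 5, and 1.13% of chromosome 16, 1.22% of chromosome 17 and 1.28% of chromosome X. The shFto-only regions made up 0.347% on chromosome 18, 0.384% on chromosome 12 and 0.826% on chromosome 5, and 1.59% on chromosome 16, 1.25% on chromosome 17 and 0.673% on chromosome X. Over the 20 chromosomes other than Y, the 2 shares had a Pearson correlation of -0.676 (Spearman -0.51).

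RNA and peak height varied with these shares in part. The median RNA log2 fold change of a chromosome's tested genes was -0.13 on chromosome 18, -0.08 on chromosome 12 and 0.23 on chromosome 16, and across the 20 chromosomes it had a Pearson correlation of -0.586 (Spearman -0.517) with the share of shNC-only regions and 0.585 (Spearman 0.495) with the share of shFto-only regions. In regions open in all libraries, the median log2 ratio of fold enrichment, shFto to shNC, was -0.10 on chromosome 18, -0.08 on chromosome 12 and -0.03 on chromosome 16, but -0.08 on chromosome X, which had a low shNC-only share, and -0.06 on chromosome 5, which had a high one (Pearson -0.615 and Spearman -0.489 with the shNC-only share). The 20 chromosomes come from the same 6 libraries of each assay and are not independent samples. DNA copy number of the 2 lines was not measured, and its part in these values was not tested.

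**Figure D5:**
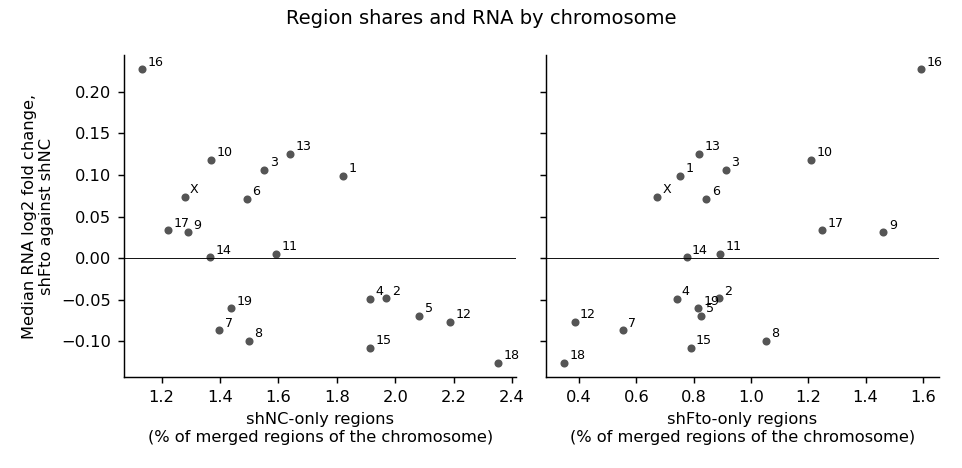
Each point is a chromosome, labelled with its name. The horizontal axes give the share of its merged regions that were shNC-only (left) or shFto-only (right), in %, and the vertical axis gives the median RNA log2 fold change of its tested genes. Chromosome 18 has the highest shNC-only share, 2.35%, and the lowest RNA median; chromosome 16 has the lowest share, 1.13%, and the highest median.

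The lower RNA near shNC-only regions was also seen within chromosomes, in a calculation added after the data were seen. With the median of each chromosome's tested coding genes subtracted, the median log2 fold change of the nearest genes was -0.08 for shNC-only regions, 0.05 for shFto-only regions and -0.00 for regions open in all libraries, and 56.3%, 41.6% and 50.1% of the genes lay below their chromosome's median. On 18 of 20 chromosomes the share of lower genes was larger near shNC-only regions than over the chromosome, with chromosomes 4 and 7 as the exceptions, and on 15 of 20 the median was lower. On chromosome 5, 34.7% of 49 nearest genes were lower against 21.9% of 702 genes, and on chromosome 11, 36.7% of 60 against 19.2% of 922. Single chromosomes held 10 to 60 such genes.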

How the data were processed

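The authors' deposited peak lists give, for each ATAC-seq library, the position, score, fold enrichment over local background and -log10 p and q of each peak. Mapping and peak calling used Trim Galore 0.6.0, Bowtie2 2.3.5, Picard, deepTools and MACS2 2.1.3 on mm10, per the submitters' processing notes, which also name STAR 2.7.0f and give no role or order. Whether reads were shifted for the transposase is not given in the sources used here, and peaks were listed for each library separately. The deposited tumour RNA table holds raw counts per gene, from a stranded total RNA kit per the labels' protocols. Counting by strand is not given in the sources used here.

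Kept peaks were ranked by -log10 q, with ties broken by -log10 p. Distances run from the nearer edge of a region to gene starts or bodies of RefSeq GRCm38.p6, in which 79.9% of 21900 protein-coding genes had a start. Of the genes tested for RNA, 99.7% matched a RefSeq symbol or synonym. RNA was fitted over all genes of the 6 tumour libraries with edgeR 4.0.16 in R 4.3.3 (filterByExpr, TMM, quasi-likelihood test, Benjamini-Hochberg adjustment). CPM values use TMM library sizes, and fold changes are shFto against shNC. On simulated counts for the same 11718 genes, 94% of 2-fold and 97% of 4-fold changes were recovered, with 2.05% false calls. Every simulated gene had the same variation between replicates and only 100 genes changed at each fold, so these rates may differ in the real data. A simulated set of 700 placed regions was recovered whole, with 1 region not placed. Those regions lay well apart, had a peak in every shNC library and were not cut by rank. Their recovery therefore checks the merging and sorting steps alone and not the choice of members by rank.

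The regions named are the 10 with the highest -log10 q in their weakest shNC library, those of the 6 genes with most regions, those nearest to genes of 6 lists, and that of Fto. A further rule, for starts of genes changed at least 2-fold at 10 CPM or more, named none. Genes with the largest RNA changes and the printed promoters were added after values were seen. The members and gene lists were chosen with earlier results of these data known. Alternatives were another rank, number of peaks, overlap and distance, other RNA settings, each library left out, and 3 choices added after seeing the data: one -log10 q threshold, only regions with no shFto peak of any rank, and RNA relative to the chromosome median. T cell RNA and RNA methylation peaks were not used here.

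Replicate numbers were not treated as pairs in the main fit. Deviations of same-numbered RNA libraries from their group means correlated at 0.014, 0.037 and -0.017, beside -0.063 to 0.046 for libraries of unlike number. With 3 libraries a group this cannot show that no batch was shared, and the ATAC-seq libraries were not checked.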

Additional observations from a re-analysis of the deposited data

How the results depend on the processing

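The number of shNC-only regions was 1461, and became 2511 with every deposited peak kept, 908 with the better-ranked peaks up to 33713 per library, and 2156 with one -log10 q threshold of 7.59 for all libraries. It was 2019 to 2192 when 1 ATAC-seq library was left out, which asks for fewer libraries. The share at a gene start, 4.38%, was 6.04% with 200 bp around each summit, 2.26% within 500 bp, 7.60% within 2 kb and 3.99% to 5.24% without 1 library. The share of nearest genes lower in shFto, 27.1%, was 23.7% with peaks ranked by fold enrichment, 23.3% for regions at a start and 23.0% with library totals in place of TMM, and the share higher, 13.9%, was then 18.6%. Library totals also moved all genes, to 13.5% lower and 20.3% higher, and their median log2 fold change to 0.05, with -0.03 near shNC-only regions. Without 1 RNA library the share lower was 18.1% to 29.6% and the share higher 9.62% to 14.4%; without 1 ATAC-seq library they were 25.3% to 26.8% and 13.2% to 14.7%. The calls over all genes, 3841, were 2468 to 4423 without 1 RNA library, lowest without shFto replicate 1, when 10.5% of all genes and 18.1% of the nearest genes were lower. With the replicate number as a block there were 3736 calls, with 26.5% of nearest genes lower and 13.9% higher. In every one of these RNA settings the share of lower genes near shNC-only regions was above that of all genes. Of the refits of genes with a region, and of Fto, 426 kept a call, 43 lost one, 16 gained one and 195 had none in either fit. The sign of the log2 fold change differed in 19 refits of 9 genes, called in neither fit. With library totals it was 0.0352 for Arhgef7, 0.0132 for Sox5, 0.0265 for Zeb2, 0.0167 for Plxna1. Without 1 RNA library it was -0.0921 to 0.0468 for Arhgef7, -0.148 to 0.0639 for Sox5, -0.0819 to 0.0341 for Zeb2, -0.12 to 0.0341 for Plxna1, -0.0271 to 0.0368 for Gosr2, -0.0308 to 0.0447 for Sipa1l1, -0.12 to 0.262 for Dtwd1, -0.421 to 0.046 for Rab17 and -0.0271 to 0.0897 for Robo1. Precision is limited by unknown ATAC-seq depth and by 3 libraries a group.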

Other observations

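There were 3 microRNA hairpins of the RefSeq table under an shNC-only region, Mir3092, Mir344d-2 and Mir7687. Their RNA was not measured here, and the table was searched after the regions were known. The region at Mir344d-2, chr7:61685104-61685627, also lay 1912 bp from Mir344d-1, and chr9:41541463-41541793 lay 4652 bp from Mirlet7a-2, a hairpin of the let-7 family.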
